A study of Homo sapiens with 35 samples.

Results

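Glucose starvation of control cells was described across all genes that passed a count filter. Control HEK293T libraries kept without glucose (3a, 3b, 4a and 4b) were set against the 4 control libraries with the same labels kept with glucose, 8 of the 35 libraries of the series. HEK293T is an established line of human embryonic kidney cells. All 8 libraries came from cells that carried a control siPOOL, a pool of small interfering RNAs, transfected in 2 rounds to 5 nM with depletion lasting 72 h. For the starved group the growth medium was replaced with glucose-free medium for the last 24 h. Whether the cells kept with glucose also received fresh medium is not given in the sources used here, so the loss of glucose and the change of medium cannot be told apart. The table held 60665 genes, of which 19275 had enough counts to be tested. The series asked how INTS13, a subunit of the RNA-cleaving Integrator complex, and its partners act with and without glucose, and the starved controls give the response of cells in which none of them was depleted.

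Glucose feeds glycolysis, the pentose phosphate pathway and the building of glycans, and the MondoA and ChREBP transcription factors switch on genes such as TXNIP when sugar phosphates build up. When glucose runs out, cells can lower translation through phosphorylation of eIF2α while raising the transcription factor ATF4, which turns on genes of amino acid synthesis and uptake, and this is called the integrated stress response. A lack of sugar for glycans can also leave proteins unfolded in the endoplasmic reticulum, and HSPA5, the main chaperone there, was first described as a glucose-regulated protein because it rises in such cells.

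Each of the 8 libraries held between 20.1 and 28.9 M counts, and 24986 to 26504 genes had at least 1 count. Expression is given as CPM, a gene's counts per 1 M of its library after TMM scaling. The labels do not say whether the libraries of a group came from separate cultures. The p-values cover only the spread of libraries within groups, which may be technical. That spread was shared over the 15 groups of all 35 libraries in the fit. Libraries of one group differed by a chi-square of 3.34 to 10.4 per degree of freedom over 12 pairs. Those of different groups differed by 17.6 to 30 over 16 pairs. Each library was counted once, although these distances cannot show whether libraries such as 3a and 3b were independent. The first principal component held 34.6% of the variance and placed the controls at -32.1 to -18.1 and the starved libraries at 24.2 to 26.8. Of 17 genes known from HEK293 cells 16 were tested, with PAX8 at 0 counts in all 8 libraries. Their summed level, as counts per 1 M without TMM scaling, was 1080 to 1170 in controls and 1060 to 1130 in starved cells. VIM alone was at 662 in controls and 694 in starved cells on this scale, so the sum says little about the others. Of the 16, 11 had a negative log2 change (median -0.239). Of 19 markers of fibroblasts, blood, endothelium, liver and other epithelia 7 were at 0 in all 8 libraries (PTPRC, CD3E, HBB, TFF1, KRT5, KRT14 and COL1A2), 16 stayed under 1 CPM in all 8, and the sum on the same scale was 5.34 to 8.75 in controls and 4.75 to 6.76 in starved cells. In bulk RNA, fewer cells of a type and less RNA per cell cannot be told apart. All 37 mitochondrially encoded genes were at 0 in every library and could not be described.

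Starvation moved many genes by small amounts. With edgeR's quasi-likelihood test and Benjamini-Hochberg adjustment over the 19275 genes, 3243 genes (16.8%) passed an adjusted p of 0.05, 1691 higher (8.77%) and 1552 lower (8.05%). At an unadjusted p under 0.05 there were 5542. The median log2 change was 0.513 among the genes that rose and -0.373 among those that fell, and 250 of the genes that rose and 95 of those that fell changed at least 2-fold. The libraries of the groups did not overlap in 5813 of all tested genes (30.2%) and in 2986 of the 3243 (92.1%), which the test chose on the same libraries. The size of the set depended on the fit. It was 5985 when the 8 libraries were fitted alone and 879 when the a and b libraries of each number were summed to leave 2 libraries a group, and 0 of the 3243 changed sign under any setting. Counts of list members moved with it. After summing, 65 of 84 such counts were more than 1.5 times lower, and with the 8 libraries alone 47 were more than 1.5 times higher. Of 33 counts of 1 or 2 genes, 21 moved as far when some single library was left out. Counts and medians of a list cover those of its genes that passed the count filter. Of the 193 named genes that passed, 96 kept their call under all 17 settings, and a lost call is stated where its gene is described.

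**Figure D1:**
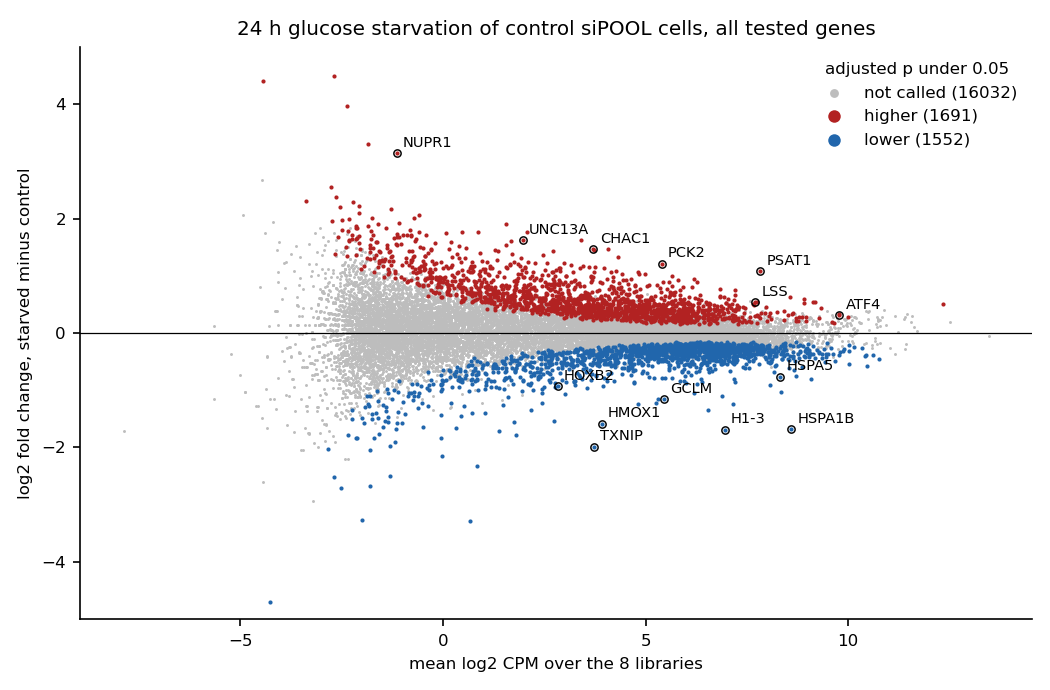
Log2 change after 24 h without glucose (y axis, starved minus control) against mean log2 CPM over the 8 libraries (x axis), with each of the 19275 tested genes as a point: 1691 called higher, 1552 called lower and 16032 not called. Labelled genes are described in the text, and the fitted value of a gene with no count in one whole group depends on the prior count.

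Among protein-coding genes of moderate or high expression whose groups did not overlap, the largest fall was in TXNIP, which encodes thioredoxin-interacting protein, a brake on glucose uptake and a MondoA target (chr1:145992435-145996579, minus strand, ENSG00000265972.6). Its level was 18.2, 21.6, 24.1 and 20.7 CPM in control libraries 3a, 3b, 4a and 4b, and 5.38, 4.58, 6.43 and 4.90 CPM in the starved libraries of the same labels. Every starved library lay far below every control. The fall left 25.1% of the control mean (log2 -1.99 ± 0.18, adjusted p = 8.95e-08). ARRDC4, an arrestin-domain gene related to TXNIP and a target of the same factors, went from 20.4, 20.8, 23.5 and 19.7 CPM to 10.7, 12.03, 12.9 and 11.2 CPM. The groups were again apart, with about the same spread in each (log2 -0.84 ± 0.10, adjusted p = 2.87e-06). Among the other 7 genes of the list of MondoA and ChREBP targets and partners, 1 rose, the KLF-family repressor KLF10 (log2 0.39 ± 0.11, adjusted p = 0.0149). That call was lost without control library 4b (adjusted p = 0.0508) and after summing (adjusted p = 0.169).

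The TXNIP promoter is shown because it is known for tandem carbohydrate response elements. A script searched windows from 250 bases before to 50 after the start in RefSeq's promoters (GRCh38.p14), in which 11277 of 13753 tested protein-coding genes (82.0%) had an entry. It looked on both strands for CACGNG and CNCGNG with 5 bases between them, which 97 of the 11277 windows (0.86%) held. TXNIP held it at position -88 and was the 1 of 8 genes of the list with a window that did. The ARRDC4 window did not hold these letters. The stretch is chr1:145996610-145996709 on the minus strand, printed 5′ to 3′ with the matched letters in capitals.
TXNIP: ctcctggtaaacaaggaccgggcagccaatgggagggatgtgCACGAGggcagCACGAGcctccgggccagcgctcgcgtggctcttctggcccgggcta

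The test called 23.1% of glucose and lactate transporters and 23.1% of glycolytic genes, beside 16.8% of all tested genes. Among protein-coding genes 9.76% were higher and 10.7% lower. SLC2A1, the main glucose transporter of many cultured cells, was at 55.5, 50.3, 48.9 and 52.9 CPM in controls and 50.6, 52.2, 53.6 and 54.00 CPM in starved cells. Those ranges overlapped (log2 0.02 ± 0.073, adjusted p = 0.907), as did those of the neuronal-type transporter SLC2A3 (log2 -0.20 ± 0.20, adjusted p = 0.573). Of 13 tested glucose and lactate transporters 2 rose and 1 fell (1 and 0 after summing). The less studied transporter SLC2A11 went from 4.65, 5.72, 5.47 and 6.29 CPM to 10.7, 11.3, 11.6 and 10.3 CPM, with all starved libraries above all controls (log2 0.99 ± 0.12, adjusted p = 4.12e-06).

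Of 26 glycolytic genes 3 rose and 3 fell, with a median log2 change of 0.0337. The counts were 0 and 1 after summing and 10 and 7 with the 8 libraries alone, and 1 was lower without control library 4b. PGAM1, the phosphoglycerate mutase of lower glycolysis, fell from 158, 179, 192 and 162 CPM to 119.5, 127, 119 and 120.2 CPM. No starved library reached the lowest control (log2 -0.51 ± 0.071, adjusted p = 1.53e-05). LDHA, which turns pyruvate into lactate, had a log2 change of -0.33 ± 0.087 (adjusted p = 0.0103), but without control library 4b, its highest, the adjusted p was 0.0567 (0.165 after summing), and a noncoding gene overlaps it on the same strand. HK2, the inducible hexokinase, was 86.4, 83.3, 80.4 and 95.2 CPM in controls and 98.6, 104, 119.9 and 123 CPM in starved cells. Its groups did not overlap, yet it missed the threshold (log2 0.37 ± 0.13, adjusted p = 0.0581), and it passed in 7 settings, with 0.000908 on the 8 libraries alone.

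Enzymes that take sugar phosphates outside glycolysis gave calls in both directions. The test called 23.8% of genes of glycogen metabolism and the hexosamine pathway and 22.6% of the citric acid cycle list. Among protein-coding genes 9.76% were higher and 10.7% lower, so both lists lay close to that background. The pentose phosphate list had a larger share, but of only 10 genes. Of 10 pentose phosphate genes 3 rose and 2 fell. The lower count was 0 after summing or without control 3b, control 4a or starved 3a, and 1 without control 4b, starved 3b or starved 4b. Of 21 genes of glycogen metabolism and the hexosamine pathway 2 rose and 3 fell (0 and 1 after summing). H6PD makes NADPH inside the endoplasmic reticulum from glucose 6-phosphate. Its levels were 24.3, 19.8, 19.1 and 19.9 CPM with glucose and 43.3, 43.8, 42.9 and 41.2 CPM without. It rose in every starved library (log2 1.04 ± 0.12, adjusted p = 2.7e-06), and PGLS, the cytosolic 6-phosphogluconolactonase, rose with it (log2 0.65 ± 0.11, adjusted p = 0.00011). GFPT1, the entry enzyme of the hexosamine pathway that supplies glycans, fell from 137, 159, 159 and 156 CPM to 109, 104, 106 and 102 CPM. Its highest starved library lay below its lowest control (log2 -0.54 ± 0.099, adjusted p = 0.000365). In the citric acid cycle and its side routes 4 of 31 rose and 3 fell (2 and 1 after summing, and 2 higher without control 3b or 4b or starved 3a or 4b), with the NADP malic enzyme ME1 lower (log2 -0.54 ± 0.10, adjusted p = 0.000501). Of 45 nuclear subunits of oxidative phosphorylation 1 rose and 1 fell (0 and 0 after summing), with a median of 0.0213.

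**Figure D2:**
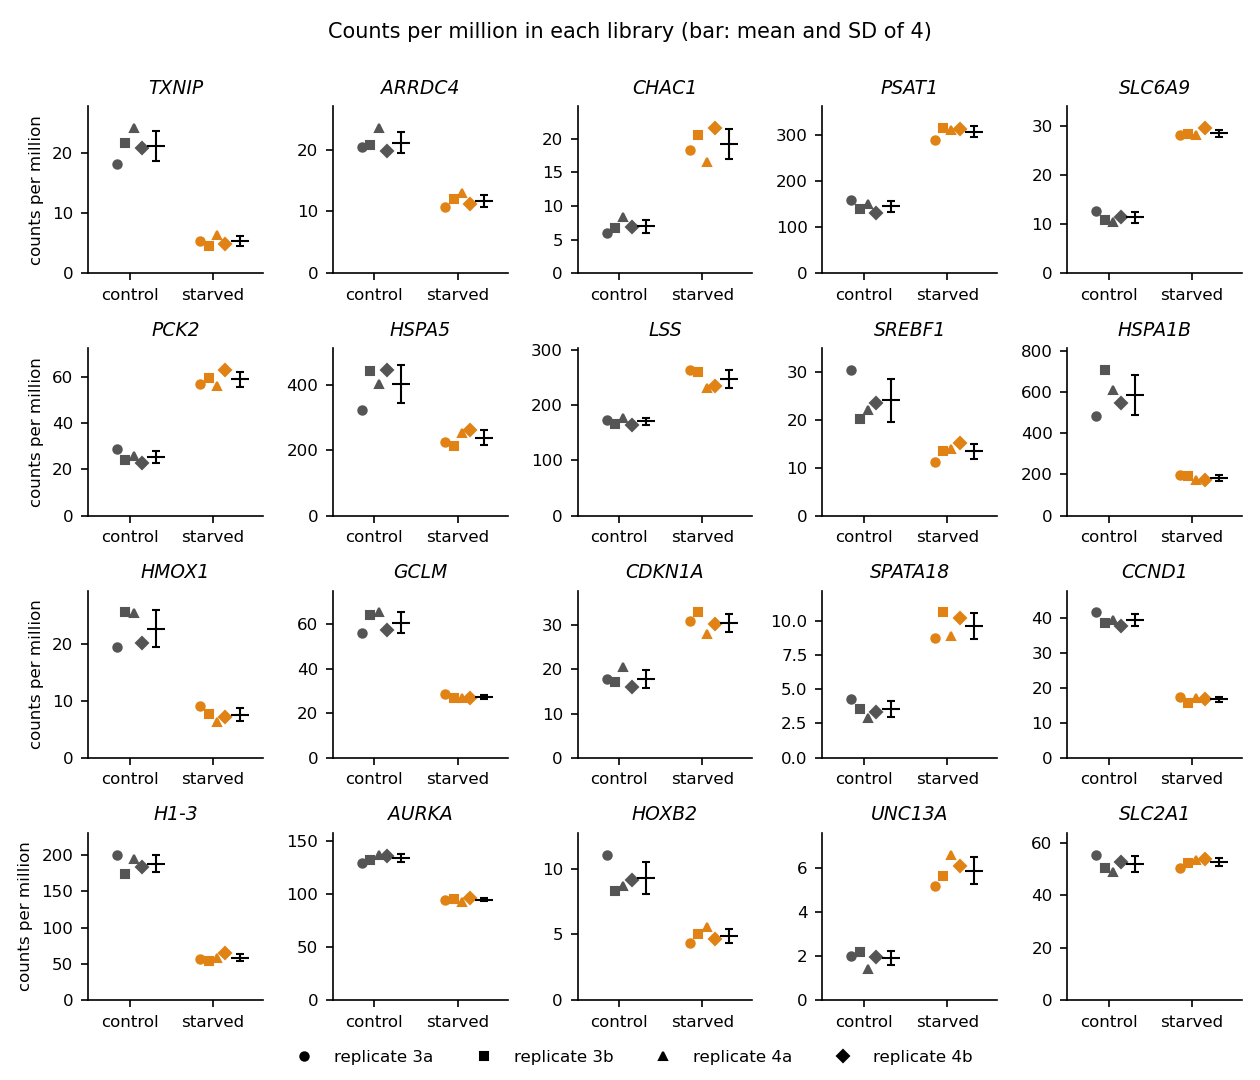
Level in CPM (y axis) of 20 genes in each of the 8 libraries, with controls and starved libraries side by side, the label of each library by marker shape, and the mean ± SD of 4 libraries beside the points. TXNIP, HSPA1B, CCND1 and H1-3 drop, PSAT1, SLC6A9, PCK2 and SPATA18 climb, and SLC2A1 overlaps.

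PCK2, CHAC1 and other genes of the integrated stress response rose, as did genes of amino acid supply. Of 33 genes of the response, ATF4 targets included, 18 rose and 1 fell (median log2 0.413, 5 higher after summing), beside 8.77% and 8.05% of all genes and an all-gene median of 0.00502. PCK2, the mitochondrial phosphoenolpyruvate carboxykinase, stood at 28.6, 24.2, 25.9 and 22.6 CPM in controls and 57.01, 59.6, 55.9 and 62.9 CPM in starved cells. All 4 starved libraries were well above every control (log2 1.22 ± 0.12, adjusted p = 1.48e-07). The glutathione-cleaving enzyme gene CHAC1 went from 6.01, 6.67, 8.29 and 6.90 CPM to 18.3, 20.5, 16.5 and 21.6 CPM. Its groups did not overlap (log2 1.47 ± 0.35, adjusted p = 0.0041), though after summing the adjusted p was 0.113. JDP2, a basic leucine zipper repressor, rose from a mean of 4.75 to 11.1 CPM (log2 1.22 ± 0.17, adjusted p = 1.17e-05). JDP2 overlaps a noncoding gene and PCK2 overlaps NRL, each on the opposite strand, and without the strand setting reads of such pairs cannot be told apart.

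Some stress factors of the list were close to 0 in controls. The count filter took in all 35 libraries. Genes so near 0 with glucose can pass it only through libraries where they are higher, starved ones or others outside the 8. Their place among the tested genes is therefore no further result, and NUPR1 and FGF21 both count among the 18 that rose. NUPR1, a small chromatin protein induced by stress, was at 0.0339, 0.0784, 0.217 and 0.0403 CPM with glucose and 0.768, 0.678, 0.823 and 0.98 CPM without. It remained below 1 CPM in every library, and the groups did not overlap (log2 3.14 ± 0.46, adjusted p = 3.04e-05). FGF21, a hormone of fasting, had 0 counts in all 4 control libraries and in starved 4a, and 0.192, 0.127 and 0.0467 CPM in starved 3a, 3b and 4b. It passed (adjusted p = 0.0337) but no longer did without any one control library, starved 3a or starved 3b (adjusted p up to 0.107) or after summing (0.0902).

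The regulators of the response gave small or no calls. ATF4 itself was at 789, 791, 806 and 758 CPM in controls and 967, 997, 950.5 and 984 CPM in starved cells. The groups did not overlap, but the log2 change was 0.31 ± 0.10 (adjusted p = 0.0383), and the call was lost whichever single library was left out (adjusted p 0.0592 to 0.097), with DESeq2 size factors (0.0542) and after summing (0.347). DDIT3, the CHOP transcription factor of prolonged stress, missed the threshold at log2 0.58 ± 0.21 (adjusted p = 0.0532, under 0.05 in 7 settings). TRIB3, a pseudokinase that ATF4 and CHOP induce, was 24.8, 25.01, 25.8 and 19.7 CPM in controls and 21.1, 19.02, 19.3 and 19.8 CPM in starved cells, overlapping and on the low side (log2 -0.27 ± 0.11, adjusted p = 0.104, and 0.0438 without control library 4b, its lowest control, one of 5 settings in which it passed as lower). EIF2S1, which encodes the eIF2α subunit, fell (log2 -0.45 ± 0.068, adjusted p = 4.56e-05).

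Of 19 enzymes of amino acid and one-carbon metabolism 10 rose and 0 fell (median 0.33, 5 higher after summing). PSAT1, the aminotransferase of serine synthesis, stood at 159.8, 139, 151 and 132 CPM in controls and 291, 316, 312 and 315 CPM without glucose. The starved libraries lay close together and well above the controls (log2 1.08 ± 0.11, adjusted p = 4.41e-07). ALDH1L2, a mitochondrial folate enzyme, rose from a mean of 62.4 to 98.7 CPM (log2 0.66 ± 0.10, adjusted p = 4.93e-05). ASNS, asparagine synthetase, went from 6.72, 7.06, 6.82 and 6.17 CPM to 10.5, 9.79, 11.3 and 11.2 CPM. All starved libraries were higher (log2 0.68 ± 0.18, adjusted p = 0.0112, and 0.166 after summing). ASNS shares its place and strand with an unnamed transcript.

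Of 18 amino acid transporters 7 rose and 1 fell (median 0.222, 4 higher after summing and also 4 without control library 4b). SLC6A9, the glycine transporter GlyT1, went from 12.8, 10.9, 10.4 and 11.5 CPM to 28.1, 28.4, 28.2 and 29.6 CPM. The 4 starved libraries lay within a narrow band above all controls (log2 1.33 ± 0.18, adjusted p = 1.38e-05), and CCDC24 overlaps it on the opposite strand. SLC1A4, a transporter of alanine, serine and cysteine, rose from a mean of 18.1 ± 1.19 to 38.1 ± 2.66 CPM (SD, n = 4 each; log2 1.07 ± 0.13, adjusted p = 3.78e-06). SLC7A3, a carrier of cationic amino acids, also rose (log2 0.94 ± 0.15, adjusted p = 9.78e-05). Cytosolic aminoacyl-tRNA synthetases, another group with ATF4 targets, had 4 of 20 higher and 2 lower, with a median of 0.0347 (0 and 1 after summing, and 2 higher without control library 3a).

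The CHAC1, ASNS and FGF21 promoters are shown because they hold TGATGNAA, the composite element that ATF4 binds with C/EBP partners. It was found on either strand in 189 of the 11277 windows (1.68%), in 28 of the 1083 of genes that rose (2.59%) and in 17 of the 1247 of genes that fell (1.36%). Not every called gene had a window. The stress response list held it in 4 of 29 windows, and in 2 of the 14 windows of its genes that rose. The list of amino acid enzymes, which holds ASNS, had it in 3 of 12 windows, all among the 5 windows of genes that rose. The tRNA synthetases had it in 6 of 16 windows, and in 1 of the 2 windows of genes that rose. A longer stretch around the CHAC1 or ASNS site would overlap the deposited span of its own gene, so 30 bases are shown. The FGF21 site lies upstream of its gene. The stretches are chr15:40953251-40953280 (plus strand), chr7:97872458-97872487 (minus strand) and chr19:48755424-48755523 (plus strand), each on the strand of its gene. The match is in capitals, on the opposite strand in CHAC1 and FGF21.
CHAC1: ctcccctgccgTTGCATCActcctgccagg
ASNS: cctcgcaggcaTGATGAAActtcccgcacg
FGF21: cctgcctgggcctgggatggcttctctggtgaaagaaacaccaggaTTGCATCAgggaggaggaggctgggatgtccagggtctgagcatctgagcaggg

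HSPA5 and other chaperones of the endoplasmic reticulum fell. Of 43 chaperone and unfolded protein response genes 0 rose and 11 fell (median -0.13, 4 lower after summing, 5 without control library 3b and 7 without control 4a, starved 3a or starved 4b). HSPA5 was at 322, 442, 404 and 445 CPM in controls and 224, 214, 252 and 262 CPM in starved cells. Control 3a was the lowest control, and it still lay above all starved libraries (log2 -0.76 ± 0.12, adjusted p = 9.78e-05). SDF2L1, a partner of HSPA5 in folding, fell from 45.03, 38.3, 38.95 and 40.2 CPM to 22.8, 23.6, 26.4 and 27.8 CPM with no overlap (log2 -0.69 ± 0.10, adjusted p = 2.52e-05). XBP1, whose spliced product drives the unfolded protein response, was 139.7, 179.6, 179 and 157 CPM in controls and 151, 157, 159.5 and 154 CPM in starved cells. The ranges overlapped (log2 -0.08 ± 0.10, adjusted p = 0.696), and these gene counts do not separate its spliced form.

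The HSPA5 promoter is shown because its endoplasmic reticulum stress elements are the textbook example. The element was searched as CCAAT and CCACG with 9 bases between them, on both strands. It was found in 14 of the 11277 windows (0.124%) and in 7 of the 40 windows of the endoplasmic reticulum list. Of the 10 windows of that list's genes that fell, 3 held it. The stretch is chr9:125241351-125241450 on the minus strand, with the matched letters at position -66 in capitals.
HSPA5: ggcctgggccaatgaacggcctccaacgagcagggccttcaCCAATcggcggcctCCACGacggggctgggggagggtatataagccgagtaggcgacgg

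HSPA1B and other cytosolic heat shock genes fell. Of 23 genes 15 fell (7 after summing) and 1 rose, with a median of -0.43. HSPA1B, an inducible HSP70, was at 482, 707, 612 and 547 CPM with glucose and 195, 192, 172 and 172 CPM without. Every starved library was more than 2-fold below the lowest control (log2 -1.68 ± 0.33, adjusted p = 0.000705, and 0.0579 after summing). Its near-identical copy HSPA1A gave log2 -1.72 ± 0.31, and reads may be split between the pair in a way the table does not show. BAG3, which couples HSP70 to autophagy, fell from a mean of 37.4 to 22.97 CPM (log2 -0.70 ± 0.18, adjusted p = 0.00878, and 0.16 after summing). The gene that rose, HSPA6, stayed under 1 CPM in all libraries, its groups overlapped, and its call was lost without control 3a, 4a or 4b or starved 3a, its highest (adjusted p up to 0.174), and after summing (0.0958).

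Genes of the NRF2 antioxidant programme went in both directions, with 2 of 22 higher and 6 lower (median -0.137, 3 lower after summing). HMOX1, the heme oxygenase that stress induces, fell from 19.4, 25.5, 25.4 and 20.2 CPM to 9.12, 7.67, 6.28 and 7.19 CPM. No starved library came near the controls (log2 -1.58 ± 0.23, adjusted p = 2.45e-05). GCLM, the modifier subunit of the enzyme that starts glutathione synthesis, was 55.99, 64.3, 65.3 and 57.2 CPM in controls and 28.6, 26.9, 26.7 and 26.7 CPM in starved cells. It fell with small spread in both groups (log2 -1.16 ± 0.11, adjusted p = 8.95e-08). SLC7A11, the cystine carrier that ATF4 as well as NRF2 controls, had a mean of 96.4 CPM in controls and 149.8 CPM in starved cells (log2 0.64 ± 0.21, adjusted p = 0.0328), a call lost without control 3a, 4a or 4b or starved 3a, 3b or 4b (adjusted p up to 0.1), or after summing (0.28).

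LSS and other genes of cholesterol synthesis rose. Of 28 genes of cholesterol synthesis and uptake 12 rose and 1 fell (median 0.345, 4 higher after summing). LSS, lanosterol synthase, went from 173, 166, 177 and 164 CPM to 263, 259, 230.2 and 234 CPM. All starved libraries exceeded all controls (log2 0.54 ± 0.078, adjusted p = 2.57e-05). MVD of the mevalonate pathway rose by a like amount (log2 0.58 ± 0.10, adjusted p = 0.000318), as did SREBF2, the gene of the sterol-sensing factor that drives these enzymes (log2 0.53 ± 0.078, adjusted p = 2.59e-05). The fall was in SREBF1, which encodes the factor more tied to fatty acid synthesis. It was 30.4, 20.1, 22.2 and 23.6 CPM in controls and 11.3, 13.4, 13.9 and 15.2 CPM in starved cells, with control 3a the highest and no overlap (log2 -0.84 ± 0.14, adjusted p = 0.000162), and RAI1 overlaps it on the opposite strand. Of 19 fatty acid synthesis and desaturation genes 4 rose and 5 fell (1 and 2 after summing), such as the desaturase-family gene FADS3 (log2 0.70 ± 0.10) and the elongase ELOVL6 (log2 -0.56 ± 0.093, adjusted p = 0.000141).

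CDKN1A and other targets of p53 rose, with 14 of 26 higher and 1 lower (median 0.311, 6 higher after summing and 9 without starved library 3b). HEK293T cells carry the SV40 large T antigen, which binds p53. CDKN1A, the p21 inhibitor of cyclin-dependent kinases, went from 17.8, 17.1, 20.6 and 15.9 CPM to 30.9, 32.9, 27.9 and 30.4 CPM. The starved libraries were all above the controls (log2 0.78 ± 0.12, adjusted p = 4.56e-05). SPATA18, a p53 target in mitochondrial quality control, was 4.31, 3.57, 2.91 and 3.35 CPM with glucose and 8.69, 10.6, 8.87 and 10.2 CPM without. It rose in each starved library (log2 1.43 ± 0.11, adjusted p = 3.82e-09). PHLDA3, an inhibitor of AKT, and EDA2R, a receptor of the TNF family, rose too (log2 1.16 ± 0.16 and 1.59 ± 0.26), as did the noncoding host gene of miR-34a, MIR34AHG, from a mean of 5.16 to 15.98 CPM (log2 1.63 ± 0.17, adjusted p = 5.17e-07). MIR34AHG overlaps another noncoding gene, and reads of the pair cannot be told apart. BTG2, an antiproliferative target, was the 1 that fell (log2 -0.40 ± 0.098, adjusted p = 0.00567, and 0.0684 after summing). Among BCL2 family and death receptor genes 3 of 18 rose and 3 fell (2 and 0 after summing), with the neuronal death gene HRK at log2 0.92 ± 0.095 (adjusted p = 3.5e-07).

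Immediate-early genes, which growth signals switch on within minutes, and feedback genes of the MAP kinase pathway had 14 of 28 lower and 2 higher (median -0.538, 4 lower after summing). DUSP5, a nuclear phosphatase of ERK, fell from 6.41, 8.04, 7.77 and 7.06 CPM to 3.55, 3.18, 3.37 and 4.15 CPM. The groups were apart (log2 -1.04 ± 0.14, adjusted p = 1.13e-05). JUND, the AP-1 member linked with resting cells, went the other way, from 39.2, 25.9, 29.5 and 26.02 CPM to 50.6, 51.3, 61.1 and 44.9 CPM (log2 0.78 ± 0.15, adjusted p = 0.000564). FOS and EGR1, the best known members, had low counts and wide spread. FOS was 1.97, 3.69, 3.04 and 2.22 CPM in controls and 0.912, 0.932, 1.27 and 1.49 CPM in starved cells, and missed the threshold despite no overlap (log2 -1.23 ± 0.46, adjusted p = 0.066, under 0.05 in 7 settings). EGR1 gave log2 -1.31 ± 0.74 (adjusted p = 0.25, under 0.05 in 6 settings). NAB2, which represses EGR proteins, fell (log2 -0.49 ± 0.096, adjusted p = 0.000814).

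CCND1, AURKA and other genes of cell division fell. CCND1, the cyclin that carries growth signals into the cell cycle, was 41.7, 38.7, 39.6 and 37.8 CPM in controls and 17.4, 15.8, 17.1 and 16.8 CPM in starved cells. All starved values lay more than 2-fold below the lowest control (log2 -1.23 ± 0.17, adjusted p = 1.09e-05). LTO1 overlaps CCND1 on the opposite strand, and since the strand setting of the counting was not given, some reads may belong to it. Of 40 mitosis genes 14 fell and 1 rose (median -0.21, 3 lower after summing). AURKA, a kinase of the mitotic spindle, went from 129, 132, 137 and 136 CPM to 93.8, 95.4, 92.6 and 96.3 CPM, a small change with very tight groups (log2 -0.50 ± 0.068, adjusted p = 1.29e-05). The mitotic kinesin KIF23 fell (log2 -0.41 ± 0.053, adjusted p = 6.83e-06). DNA replication genes had 3 of 43 higher and 3 lower, with a median of -0.0724. After summing 0 passed, 1 was higher without control library 4a, and 5 were lower without control library 3a.

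H1-3 and other replication-dependent histone genes fell, with 19 of 44 tested lower and 1 higher, of 66 in the table (median -0.406, 9 lower after summing). H1-3, a linker histone, was 201, 174, 195 and 184 CPM with glucose and 56.1, 54.1, 58.1 and 65.2 CPM without. Every starved library was below every control by more than 2-fold (log2 -1.69 ± 0.12, adjusted p = 1.32e-09). H2AC8, H2AC4, H3C1 and H3C7 of the chromosome 6 clusters fell too (log2 -1.54, -1.35, -1.23 and -1.14). Histone genes are near-copies of one another and share reads, so single members are uncertain. Their share of all counts was 1.33% to 1.61% in controls and 1.05% to 1.23% in starved cells.

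DDX21 and other ribosome biogenesis genes fell, and the count of ribosomal protein genes turned on the fit. Of 37 biogenesis genes 15 fell and 0 rose (median -0.265, 5 lower after summing and 23 with a replicate block of the numbers over all libraries). DDX21, an RNA helicase of rRNA transcription and processing, fell from 848, 1021, 952 and 978 CPM to 699, 677, 671 and 649 CPM. Its starved libraries were all below its lowest control, 3a (log2 -0.49 ± 0.077, adjusted p = 6.31e-05). PNO1, an assembly factor of the small subunit, fell as well (log2 -0.56 ± 0.10, adjusted p = 0.00045). Of 77 ribosomal protein genes 1 passed, RPL28 (log2 0.33 ± 0.095, adjusted p = 0.0157), which was lost without control 3b or 4a or starved 4b (adjusted p up to 0.0661) or after summing (0.223), but 71 had a positive value and the median was 0.197. Their share of all counts was 6.49% to 7.12% in controls and 7.81% to 8.33% in starved cells. With no filter on low counts 17 of them passed as higher, and with the 8 libraries alone 55 did.

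Neuronal and synaptic vesicle genes, a list added after single-gene values had been seen, had 21 of 50 tested higher and 2 lower, of 61 in the table (median 0.397, 12 higher after summing). HEK293 cells are known to express a set of neuronal genes. UNC13A, which primes synaptic vesicles for release, went from 2.00, 2.20, 1.43 and 1.98 CPM to 5.19, 5.63, 6.62 and 6.11 CPM. It rose in all starved libraries (log2 1.63 ± 0.15, adjusted p = 8.95e-08). The granins CHGB and SCG3 of secretory granules rose but stayed under 1 CPM (log2 1.69 ± 0.31 and 1.80 ± 0.32). KIF5C, a neuronal kinesin heavy chain, fell from 59.9, 68.1, 63.1 and 64.7 CPM to 36.7, 35.97, 38.1 and 37.6 CPM with no overlap (log2 -0.78 ± 0.10, adjusted p = 8.07e-06). CRMP1, an axon guidance mediator, rose (log2 1.23 ± 0.18), but EVC lies on the other strand at that place.

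DHRS3, HOXB2 and other genes of the retinoic acid and HOX lists, also added after values had been seen, fell. Of 24 genes of retinoic acid metabolism, receptors and targets 11 fell and 0 rose (median -0.473, 6 lower after summing). DHRS3, a retinal reductase that retinoic acid induces, was 17.5, 14.1, 14.2 and 15.8 CPM in controls and 7.92, 7.58, 7.78 and 8.54 CPM in starved cells. All starved libraries were lower (log2 -0.96 ± 0.11, adjusted p = 1.38e-06). HOXB2, a direct retinoic acid target that sets position along the body axis, went from 11.1, 8.31, 8.64 and 9.16 CPM to 4.32, 5.04, 5.54 and 4.67 CPM. The groups did not overlap (log2 -0.92 ± 0.11, adjusted p = 3.69e-06). HOXB2 overlaps an antisense gene, so its counts may hold reads of that gene. Of 38 HOX genes 14 fell and 0 rose (median -0.269, 9 lower after summing), and HOXB2 is in both lists.

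Genes known from HEK293 cells were among those that fell. HOXA9, a homeobox gene of the posterior body axis, fell from 73.6, 74.5, 79.7 and 70.7 CPM to 50.2, 47.96, 49.6 and 44.8 CPM. Its ranges were well apart (log2 -0.63 ± 0.087, adjusted p = 1.37e-05). EMX2, a homeobox factor of the developing urogenital tract, fell too (log2 -0.56 ± 0.13, adjusted p = 0.0028). HOXA9 overlaps HOXA10 and EMX2 overlaps an antisense gene, and 6 of the 16 tested markers were lower in all. INA, a neurofilament-type gene of the same list, rose (log2 0.59 ± 0.12, adjusted p = 0.00112, and 0.0533 after summing).

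**Figure D3:**
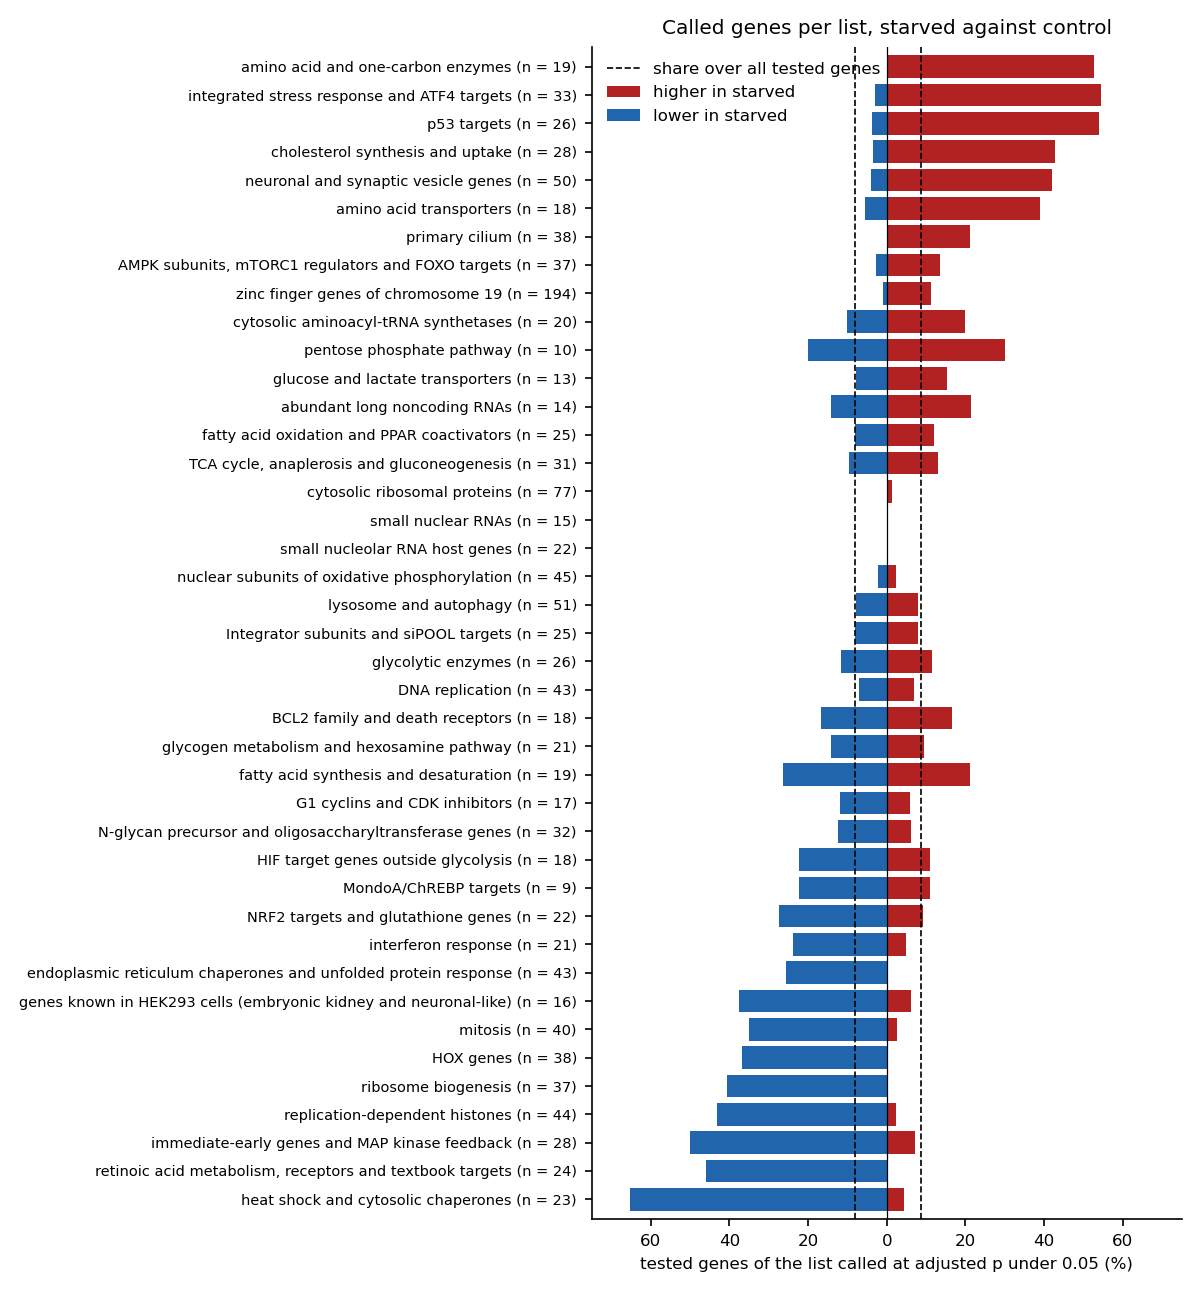
Percent of the tested members of each gene list called higher (bars to the right) or lower (bars to the left) after starvation. Dashed lines mark the share over all 19275 genes, 8.77% higher and 8.05% lower; among lists of over 20 tested genes, heat shock (15 of 23 lower) and the stress response (18 of 33 higher) reach furthest.

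Except for the zinc finger genes, the remaining lists had at most 8 calls in either direction. Over all tested genes 8.77% rose and 8.05% fell, 16.8% in all. Among protein-coding genes alone, the nearer share for these lists, 9.76% rose and 10.7% fell. The test called 12.4% of the zinc finger genes, 15.7% of lysosome and autophagy genes and 16.2% of the AMPK, mTORC1 and FOXO list. It called 18.8% of N-glycan, 21.1% of primary cilium, 28.6% of interferon and 33.3% of HIF genes. Lysosome and autophagy genes had 4 of 51 higher and 4 lower (1 and 1 after summing, and 2 lower without starved 4a), with GABARAPL1, an autophagosome protein, lower (log2 -0.74 ± 0.088, adjusted p = 2.38e-06) and the autophagy kinase ULK2 higher (log2 0.46 ± 0.091). Regulators of AMPK and mTORC1 with FOXO targets had 5 of 37 higher and 1 lower (0 and 0 after summing, and 3 higher without control 4b). N-glycan precursor genes had 2 of 32 higher and 4 lower (1 and 1 after summing, and 2 lower without control 4a, starved 3b or starved 4b). HIF targets outside glycolysis had 2 of 18 higher and 4 lower (1 and 2 after summing), such as the circadian repressor BHLHE40 (log2 0.81 ± 0.12) and the prolyl hydroxylase EGLN3 (log2 -0.73 ± 0.10). Primary cilium genes had 8 of 38 higher and 0 lower (4 after summing), led by BBS2 and IFT140, which move cargo in cilia (log2 0.71 ± 0.11 and 0.65 ± 0.095). Of 21 interferon response genes 1 rose and 5 fell (0 and 2 after summing, and 3 lower without starved 3a or starved 4b), with IFIT1, an RNA-binding antiviral gene, lower (log2 -0.81 ± 0.12). Zinc finger genes of chromosome 19 had 22 of 194 tested higher and 2 lower, of 242 in the table (4 higher after summing, and 13 or 14 without control 4b, starved 3a or starved 3b). Small nuclear RNAs and hosts of small nucleolar RNAs had 0 of 15 and 0 of 22 called.

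Outside the lists, the largest changes at moderate expression named genes of several kinds. C1QTNF6, a secreted C1q-family protein, rose from 9.43, 8.63, 9.86 and 7.58 CPM to 23.9, 26.3, 21.6 and 26.2 CPM (log2 1.46 ± 0.20, adjusted p = 1.24e-05). AHNAK2, a giant scaffold protein, and TTLL1, which adds glutamate to tubulin, rose as well (log2 1.45 ± 0.25 and 1.37 ± 0.20). SELENOW, a small selenoprotein, fell from 51.7, 52.1, 55.1 and 56.2 CPM to 22.2, 25.97, 18.4 and 25.6 CPM (log2 -1.22 ± 0.14, adjusted p = 1.83e-06). SLITRK3, a synaptic adhesion gene, fell too (log2 -1.34 ± 0.18, adjusted p = 1.25e-05). These genes were named only if no starved library overlapped a control, so their lack of overlap is no further result. Antisense and lincRNA genes gave more higher than lower calls, with 8.11% of 1406 antisense genes higher and 1.71% lower, and 7.21% of 1138 lincRNA genes higher and 1.32% lower, beside 9.76% and 10.7% of 13753 protein-coding genes. Short noncoding classes gave few calls, with 0 higher and 2 lower of 124 snoRNA genes and 0 higher and 3 lower of 72 miRNA genes.

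The targets of the series' depletions were not all level. INTS13 was 98.2, 102, 102 and 107 CPM in controls and 102, 103, 106 and 104 CPM in starved cells, with overlap (log2 0.02 ± 0.087, adjusted p = 0.911). HDGF, a chromatin-binding growth factor, was at log2 -0.19 ± 0.062 (adjusted p = 0.0316), lost without control 3b or 4b or starved 3b, 4a or 4b (adjusted p up to 0.102), with no filter on low counts (0.255) and after summing (0.271). ZMYND8, a chromatin reader, gave log2 0.07 ± 0.13 (adjusted p = 0.777).

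Starvation of INTS13-depleted and of HDGF-depleted cells (2 libraries with and 2 without glucose each, 5 nM siPOOL for 72 h, 24 h of starvation) gave responses that share no library with that of control cells. INTS13 was at 14.2 and 14.2 CPM in its own depleted libraries and 19.8 and 18.8 CPM in the starved ones, and HDGF at 42.7 and 49.6 CPM and at 46.8 and 52.1 CPM, all far below the controls given above or, for HDGF, 533 to 578 CPM. The test called 255 genes (1.32%) after starvation of INTS13-depleted cells and 683 (3.54%) in HDGF-depleted cells, with 2 libraries a group in place of 4. Of the 3243 genes called in control cells, 2964 (91.4%) had the same sign in INTS13-depleted cells and 3044 (93.9%) in HDGF-depleted cells, beside 69.0% and 71.3% of all genes. The genes that rose in control cells had a median of 0.513 there, 0.304 in INTS13-depleted and 0.359 in HDGF-depleted cells, and those that fell had -0.373, -0.203 and -0.264. They were chosen on the control response, which favours larger values there. TXNIP gave log2 -1.99 in control, -2.06 in INTS13-depleted and -2.41 in HDGF-depleted cells, and PCK2 gave 1.22, 0.74 and 1.23.

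The difference between responses was tested as an interaction in the same fit. In INTS13-depleted cells 3 of 19275 genes (0.0156%) passed, with 1103 at an unadjusted p under 0.05. In HDGF-depleted cells 0 passed (0%), with 909 unadjusted and 7 by DESeq2's Wald test. SEC23A, a coat protein of vesicles that leave the endoplasmic reticulum, was 234, 251, 256 and 235 CPM in controls and 203, 195, 199 and 186 CPM in starved controls. In INTS13-depleted cells it was 84.9 and 85.4 CPM with glucose and 115 and 108 CPM without. It fell in control cells and rose in INTS13-depleted cells from a level that was already far lower (difference in log2 change 0.70 ± 0.097, adjusted p = 0.00207). MSRB3, a methionine sulfoxide reductase, was 26.7, 28.3, 31.2 and 30.2 CPM in controls and 19.6, 20.2, 20.1 and 19.98 CPM in starved controls, against 15.8 and 12.7 CPM and then 17.4 and 16.5 CPM in INTS13-depleted cells (0.79 ± 0.13, adjusted p = 0.0184). KCTD20, a BTB-domain gene tied to AKT signalling, was 199, 219.5, 219.5 and 203 CPM and 167, 165, 178 and 162 CPM, against 114.9 and 112 CPM and then 136 and 138 CPM (0.60 ± 0.11, adjusted p = 0.0372). All 3 were lower in INTS13-depleted cells with glucose than in any control library. INTS13 itself was less depleted in the starved cells, at 14.2 and 14.2 CPM with glucose and 19.8 and 18.8 CPM without. Whether this bears on the 3 differences was not tested. None of the 3 passed after summing (adjusted p 0.123 to 0.369) or with no filter on low counts (0.126 to 0.449), and without starved INTS13 library 3 SEC23A was at 0.0751 and MSRB3 and KCTD20 at 0.258. MSRB3 also lost its call without control 4a, starved control 3a, INTS13 library 4 or starved INTS13 library 4 (0.0537 to 0.462), and KCTD20 without control 3b or 4a, starved control 3a, 3b or 4b, either INTS13 library or starved INTS13 library 4 (0.0717 to 0.462). SEC23A and KCTD20 overlap SEC23A-AS1 and PXT1 on the opposite strand, and MSRB3 overlaps a noncoding gene on its own strand.

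**Figure D4:**
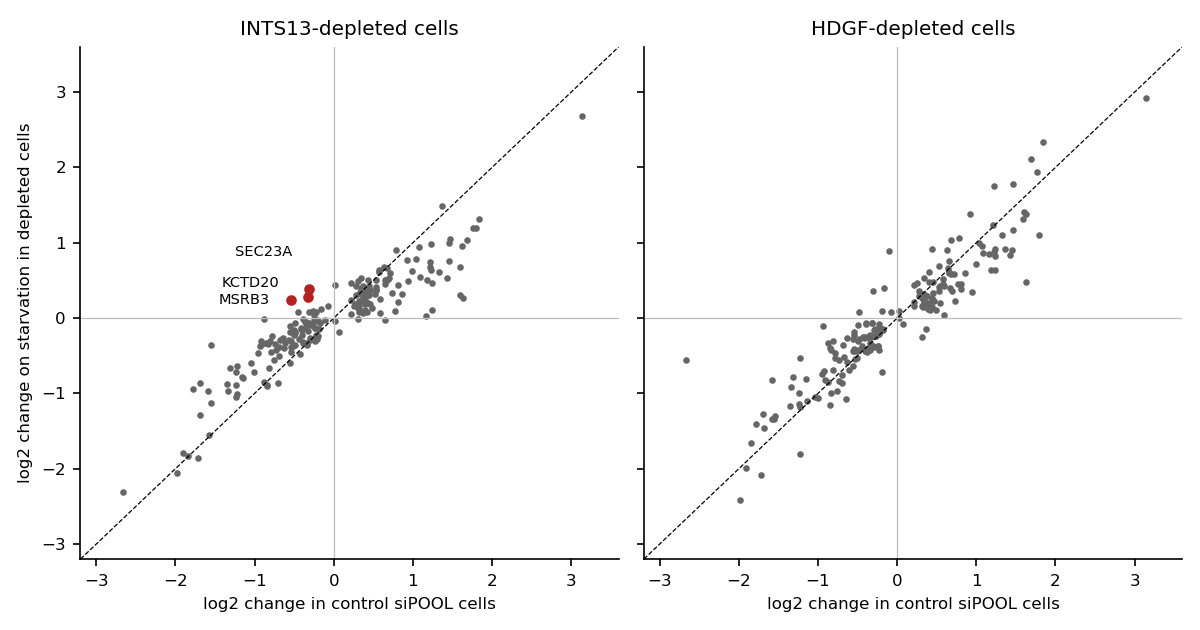
Log2 change after starvation in INTS13-depleted and in HDGF-depleted cells (y axes) against that in control cells (x axis) for the named genes, with the line of equal change dashed and SEC23A, MSRB3 and KCTD20 in red. Genes with no count in one whole group are not drawn; the red points are below 0 on the x axis and above 0 on the y axis of INTS13-depleted cells.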

How the data were processed

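Total RNA of HEK293T cells was depleted of ribosomal RNA and made into stranded libraries, per the labels' protocols. The authors deposited raw read counts per gene for 35 libraries, named as taken before duplicates were removed. The same table gives gene lengths, deposited by the authors as other values and used only to sort genes by length. Reads passed through FastQC, cutadapt and STAR on hg38, per the submitters' processing notes, with no versions. The counter, its strand setting and the release of the annotation are not given in the sources used here. Of 60665 identifiers 58478 were found in GENCODE release 29, which gave gene types. Gene positions and strands were those deposited with the counts.

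Genes were filtered with filterByExpr by group, scaled by TMM and tested with edgeR 4.0.16 (quasi-likelihood, R 4.3.3) in 1 fit of 15 group means over 35 libraries without a block (20 residual and 5.87 prior degrees of freedom; biological coefficient of variation 0.123). The contrast used the 4 starved and 4 control libraries, two-sided, with Benjamini-Hochberg adjustment over 19275 genes at 0.05. CPM used TMM-scaled library sizes. The script was tested on simulated data. Alternatives were DESeq2 1.42.0 size factors and Wald test, no filter, fewer libraries, replicate blocks, summed a and b libraries and each library left out. Depth of 20.1 to 28.9 M counts limits genes under about 1 CPM. The filter took in all 35 libraries, so a gene near 0 in one group can pass it through another.

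The members and lists were chosen with earlier results of these data known, and the neuronal, retinoic acid and HOX lists after single-gene values had been seen. Named genes were, per direction, the 12 protein-coding genes that passed with the largest changes, groups that did not overlap and a mean log2 CPM of 2 or more, up to 3 called members in each direction of each list, a fixed set from TXNIP to ZMYND8, 3 noncoding genes in each direction and the 4 genes with the smallest adjusted p of each interaction. The results of some of these genes are not reported here.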

Additional observations from a re-analysis of the deposited data

Results flagged for a closer look

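In 202 genes chosen by the naming rule, of which some are described only here, each group of 4 libraries was checked for a library that stood apart from the other 3 by Dixon's test. It marked 25 of 404 groups (6.19%), and chance alone marks about 1 in 20. Control 3a stood apart in JDP2 (5.905 CPM, others 4.274 to 4.518), H6PD (24.33), ZNF358 (23.01), GFPT1 (136.7), IDH1 (101.2), KIF23 (172.4) and BCL2L2 (17.95). Control 4b did so in LDHA (1120 CPM, others 934.9 to 959.3), DOLPP1 (45.98), INTS3 (150.7) and TRIB3 (19.72). Control 3b did so in CPT1A (48.3 CPM), and control 4a in NAB1 (42.81). Starved 3a stood apart in GCLM (28.58 CPM, others 26.7 to 26.9) and HSPA6 (0.9605), and starved 3b in SLC7A3 (7.711). Starved 4a did so in ME1 (21.55 CPM), ALDH1L2 (108.1), JPX (88.27) and ASNSP1 (5.498). Starved 4b did so in PGD (288.9 CPM), EGLN3 (9.241), MYBL2 (310.2), RPL28 (473.3) and H2BC15 (176.6).

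The starvation response of INTS13-depleted cells differed from that of control cells by the edgeR interaction test in SEC23A (0.703 ± 0.0968 on the log2 scale, adjusted p = 0.00207), MSRB3 (0.788 ± 0.129, adjusted p = 0.0184) and KCTD20 (0.597 ± 0.105, adjusted p = 0.0372). Each INTS13 group had 2 libraries. All 3 calls were lost after summing (adjusted p 0.123 to 0.369) and with no filter on low counts (0.126 to 0.449). They were also lost without starved INTS13 library 3 (0.0751 to 0.258).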

How the results depend on the processing

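Of the 3243 genes called by edgeR, 3136 remained with DESeq2 size factors, 3117 with DESeq2's Wald test and 2209 with no filter, and 0 changed sign under any setting. The 8 libraries alone gave 5985 calls (3129 higher, 2856 lower). The second set, a grouping made here that no label names, held these 8 and the INTS13, HDGF and ZNF655 libraries, starved ones included. It left out the ZMYND8 libraries and their controls, and alone it gave 6479 calls (3170 and 3309). Summing the a and b libraries, an alternative with 2 libraries a group, gave 879 (487 and 392). Leaving out 1 library gave 2408 to 3009 calls, 1245 to 1580 higher and 1161 to 1429 lower. The share of calls that were higher was 52.1% in the fit of all 35 libraries and 47.2% to 55.4% over the settings. The labels did not pair the libraries: deviations of same-labelled control and starved libraries correlated across genes at -0.0368 (3a), 0.0462 (3b), 0.0125 (4a) and 0.0397 (4b), and 2 of 4 labels matched their own number best. A replicate block of the 4 labels on the 8 libraries gave 5672 calls (2953 and 2719), a block of numbers 3 and 4 gave 5796 (3018 and 2778), and a block over all libraries 4226. The INTS13 interaction gave 46 calls with the Wald test, 307 with second-set libraries alone, 13 with the block over all libraries, 0 after summing and 0 to 7 with 1 library left out, and with no filter it gave 3 others. The HDGF interaction gave 7 with the Wald test and 41 with second-set libraries alone. Of 193 called named genes 45 lost their call without some single library and 0 reversed. Genes with under about 1 CPM have few counts at this depth.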
